A study of Mus musculus with 10 samples.

Results

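Long intergenic RNAs (lincRNAs) are transcripts made from their own loci between coding genes, and most have no known protein product. The 150 described here were the lincRNAs with the largest raw count summed over the 10 libraries, out of 5629 entries of that class in a table of 55487 genes. They were read in microglia, the resident macrophages of the central nervous system, sorted from mouse retina. Of the 5629 entries 2771 had a read and 577 passed the filter on low counts, as did all 150 of the most abundant. A read was found in every library for 149 of the 150. Together they held 1540672 of the 1685023 lincRNA reads (91.4%). The members were thus chosen by their summed reads, so their abundance is a description and carries no test. The sum also counts the group with 4 libraries more than the groups with 3.

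All mice carried the genotype Cx3cr1GFP/+, in which GFP stands in place of 1 allele of the fractalkine receptor and also marks other myeloid cells, so the controls too have a single working allele. The 3 groups were littermate controls (Control, n = 3), mice 4 weeks after streptozotocin (4wk STZ, n = 3) and mice 8 weeks after it (8wk STZ, n = 4). Streptozotocin (STZ) destroys pancreatic beta cells and makes mice diabetic. Each library held viable GFP-positive cells from both retinas of 1 animal, and the labels give neither the animals' ages nor a library batch. The 3 comparisons set each diabetic group beside Control and the 2 diabetic groups beside each other. The first 2 share the control libraries, and each library is a separate animal.

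Library totals ran from 33266838 to 62903489 reads. On the first 2 principal components, 2 libraries stood away from the others, Control 3 and 4wk STZ 3, and counts of calls are given with and without them. Summed counts of 12 microglia markers took 4.68 to 4.92% of a Control library, 4.06 to 4.6% in 4wk STZ and 4.18 to 4.42% in 8wk STZ, and the lowest of the 12 averaged 226 CPM in Control. Counts of 16 rod photoreceptor markers took 0.894 to 1.02% in Control, 0.452 to 0.641% in 4wk STZ and 0.299 to 0.434% in 8wk STZ. All 16 rod markers fell in 8wk STZ against Control, as did 4 of 14 markers of inner retinal neurons and 4 of 12 microglia markers. Counts of 12 Müller glia and astrocyte markers, most of them from Apoe, took 0.278 to 0.573%, 0.344 to 0.625% and 0.619 to 2.1% in the 3 groups, and 3 of the 12 fell. Counts of 10 border macrophage and monocyte markers took 0.082 to 0.305%, 0.123 to 0.368% and 0.0962 to 0.445%, and none passed by edgeR. No defining marker was at 0, and the part of these markers in the values below was not tested. In such bulk samples, fewer cells of a type and less RNA per cell cannot be told apart.

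Many abundant lincRNAs act inside the nucleus. Malat1 lies in nuclear speckles, bodies rich in splicing factors, and Neat1 is the RNA scaffold of paraspeckles. Others carry a smaller RNA: snoRNA hosts release small nucleolar RNAs from their introns, and microRNA hosts release the hairpins that are cut into microRNAs. A further group works in the cytoplasm by holding proteins or microRNAs, such as 2900097C17Rik, the mouse Norad, and Oip5os1, the mouse Cyrano.

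Reads were concentrated in a few members. Malat1 alone held 39.7% of the members' reads, and the 15 most read held 75.4%. The cut at rank 150 fell where levels change slowly: inside it lay Gm29395 (936 reads), 4833445I07Rik (927) and Gm47543 (922), and 2900052N01Rik (918) lay just outside. Levels of different genes can be compared only per length of exon. As mean RPKM over the 10 libraries, Gm10134 (439) and Gm10076 (386) came first, followed by Mir142hg (192) and Malat1 (181). In the GENCODE vM21 annotation 146 of the 150 are lincRNAs, and 3 (Gm10134, Gm47283 and Gm21860) are classed as coding. On either strand, 37 members share exonic bases with another gene, and reads in the shared bases cannot be assigned here.

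Precision depended on level. The coefficient of variation between Control animals had a median of 13.7% for members of rank 1 to 15, 27.3% for rank 16 to 50, 34.6% for rank 51 to 100 and 46.4% for rank 101 to 150. The median standard error (SE) of the log2 fold change between 8wk STZ and Control was 0.26 for rank 1 to 50 and 0.551 for rank 101 to 150.

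**Figure D1:**
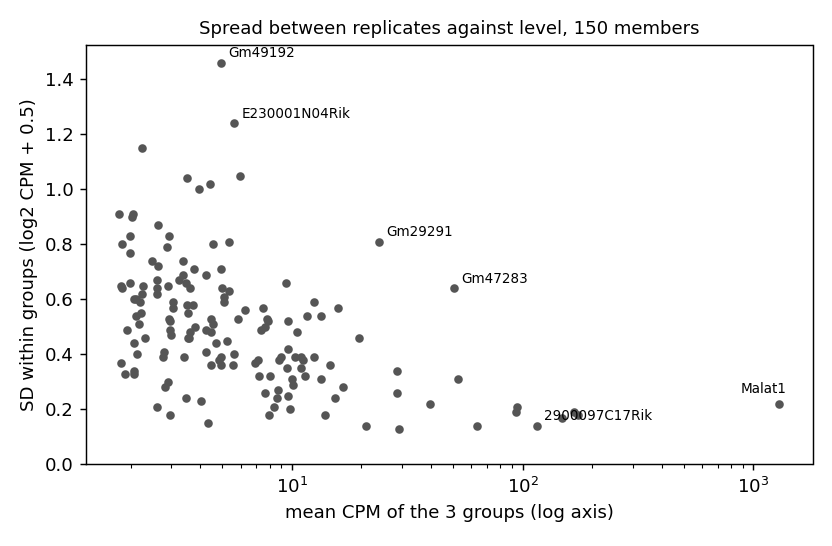
Spread between replicates (SD within groups of log2(CPM + 0.5), over 7 degrees of freedom) against the mean CPM of the 3 groups, on a log axis. Each point is 1 of the 150 members. The points fall from left to right, and Gm49192 has the highest value (1.46).

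The members' share of a library's counts was alike in the 3 groups: 0.318 ± 0.0323% (SD, n = 3) in Control, 0.317 ± 0.0199% (n = 3) in 4wk STZ and 0.311 ± 0.0387% (n = 4) in 8wk STZ. Within that total, Malat1 and the rest differed in opposite directions. Malat1 took 0.125 to 0.174% of the counts in Control, 0.12 to 0.146% in 4wk STZ and 0.0872 to 0.128% in 8wk STZ. The other 149 members took 0.158 to 0.174% in Control, 0.181 to 0.193% in 4wk STZ and 0.186 to 0.229% in 8wk STZ. No library of either STZ group reached down to the Control range for the 149, while for Malat1 the ranges overlapped. On the TMM scale used in the tests, the 149 summed to 1627 to 1834 CPM in Control, 1834 to 1993 in 4wk STZ and 1843 to 2114 in 8wk STZ, so there the groups only just met. These shares were described and not tested.

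**Figure D2:**
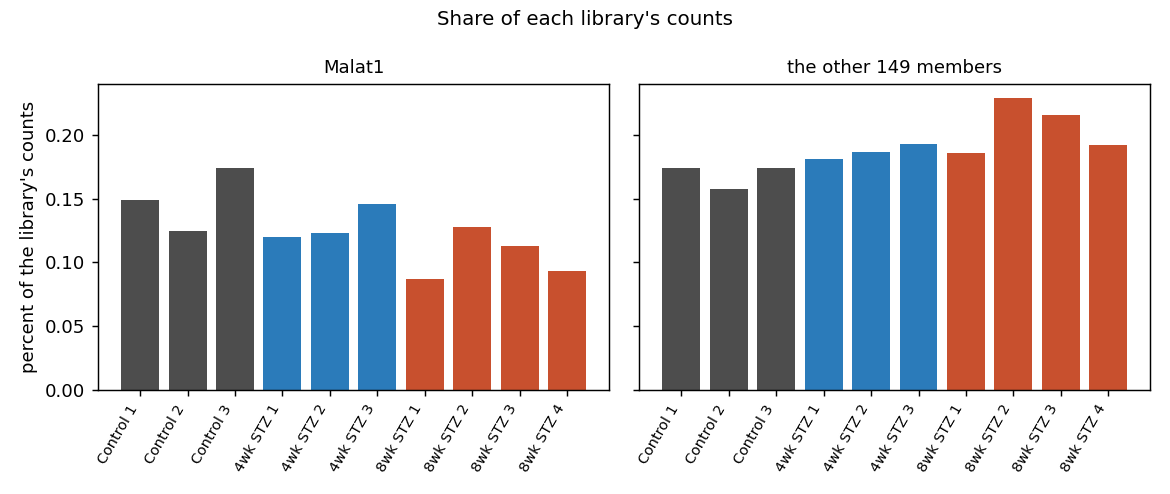
Percent of each library's counts in Malat1 (left) and in the other 149 members (right). Each bar is 1 library, coloured by group. Malat1 is lowest in 8wk STZ 1 (0.0872%), and the other 149 are lowest in Control 2 (0.158%) and highest in 8wk STZ 2 (0.229%).

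Between 4wk STZ and Control no member passed edgeR's quasi-likelihood test at an adjusted p below 0.05. Over all 18957 genes tested 0% passed. At an unadjusted p below 0.05 there were 15 members (10%), beside 9.75% of all genes. DESeq2 called 1 member (Snhg20), beside 1.62% of all genes, and limma-voom called 0. The groups did not overlap for 21 members (14%), beside 12.3% of all genes. Of these 14 were higher in 4wk STZ, beside 6.07% of all genes, and 7 were lower, beside 6.25%. The members' median log2 fold change was 0.06, beside 0 for all genes.

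Between 8wk STZ and Control 4 members passed (2.67%), beside 2.37% of all genes. Gm38843, Gm2629 and AU020206 rose, beside 0.971% of all genes, and Gm20342 fell, beside 1.4%. With libraries scaled by their totals only, 8 members rose and 0 fell, and with upper-quartile factors 2 rose and 2 fell. Unadjusted p was below 0.05 for 36 members (24%), beside 15.7% of all genes, and the groups did not overlap for 38 (25.3%), beside 16.9%. Of the 38, 24 were higher in 8wk STZ, beside 8.91% of all genes, and 14 were lower, beside 7.99%. DESeq2 called 18 members (12%), beside 8.26% of all genes, and limma-voom called 8 (5.33%), beside 3.19%. The median log2 fold change was 0.14, beside -0.01 for all genes, and 91 of 150 members lay above 0, beside 9362 of 18957 genes. Matched by symbol, 117 of the members were found in the authors' deposited table. No member whose symbol starts with a digit or holds a hyphen was matched. Whether such members are there under another form of name was not tested. Of the 117 matched members, 9 were higher and 4 lower at an FDR below 0.05 (11.1%), beside 7.29% of all genes there.

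These 4 calls were close to the threshold. Leaving out 1 library at a time left 0 or 1 member called. Gm2629 was called in 0 of those 7 fits, and Gm38843, AU020206 and Gm20342 in 1 each. A fit without Control 3 and 4wk STZ 3 called 1, Gm38843 (adjusted p = 0.0379 by edgeR). Between 8wk STZ and 4wk STZ 2 members passed (1.33%), beside 0.918% of all genes. Gm38843 rose, beside 0.396% of all genes, and 2900097C17Rik fell, beside 0.522%. Neither was called in any of the 7 fits that left out 1 library. Without Control 3 and 4wk STZ 3 the count was 0, beside 6 of all genes. Unadjusted p was below 0.05 for 27 members (18%), beside 13.7% of all genes. DESeq2 called 10 members, beside 5.97% of all genes, and limma-voom called 3, beside 1.1%. The groups did not overlap for 32 members (21.3%), beside 15.4% of all genes. Of these 15 were higher in 8wk STZ, beside 8.39% of all genes, and 17 were lower, beside 6.97%.

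**Figure D3:**
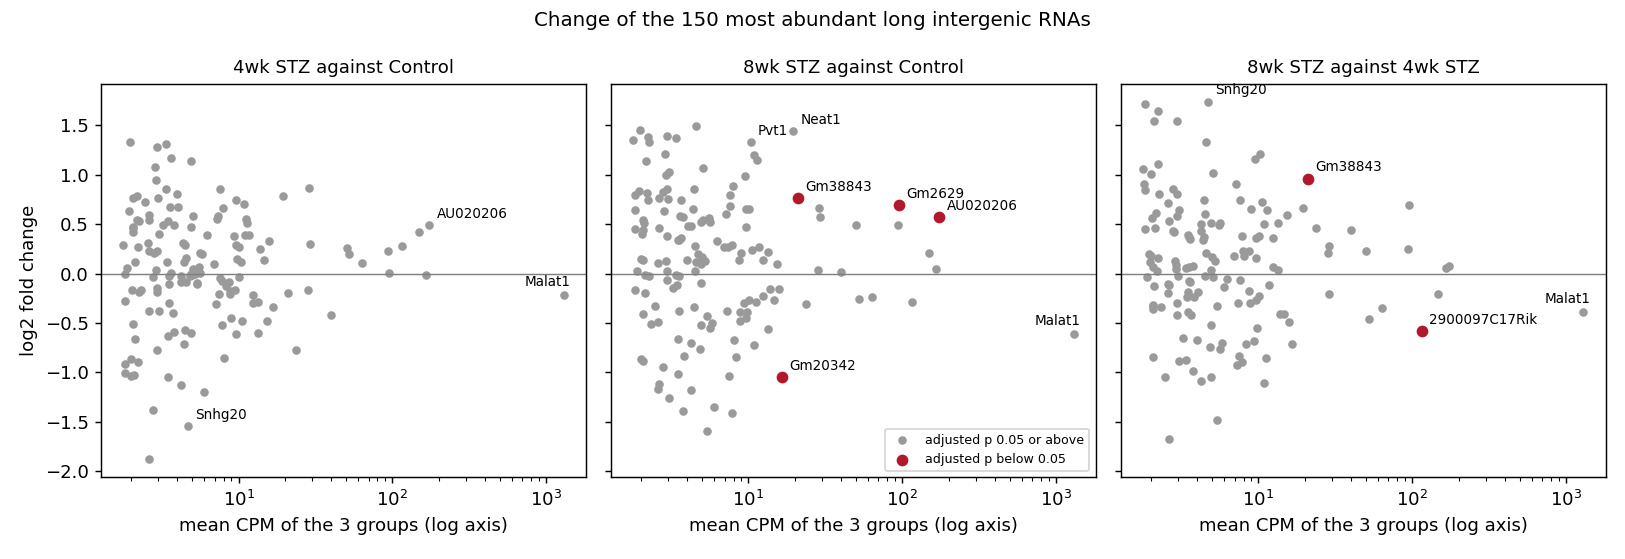
Log2 fold change of the 150 members against the mean CPM of the 3 groups (log axis) in the 3 comparisons. Grey points are members with an adjusted p of 0.05 or above, and red points are those below 0.05. There is no red point at 4 weeks, there are 4 in 8wk STZ against Control, and there are 2 between the STZ groups.

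Malat1 (chr19:5795690-5802672, minus strand, GRCm38) was the most read of the nuclear body RNAs. It carries no ordinary poly(A) tail. Its end is an encoded run of A, folded into a triple helix with a pair of U-rich stretches upstream, and the primer that copies polyadenylated RNA can anneal to that run. In the annotated transcript of 6983 bases, the 12 A lie at positions 6674 to 6685. The annotated transcript runs on beyond them, and where Malat1 was copied in these libraries was not tested. The stretch is shown because it holds the parts of that helix (chr19:5795978-5796072, minus strand, GRCm38, written as DNA from the GENCODE vM21 transcript). Capitals mark the 2 U-rich motifs and the A run.
Malat1: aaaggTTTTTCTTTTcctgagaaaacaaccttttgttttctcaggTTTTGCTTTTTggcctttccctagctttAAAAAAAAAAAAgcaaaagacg

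Malat1 was at 1520, 1290 and 1840 CPM in Control, 1210, 1260 and 1510 in 4wk STZ, and 870, 1190, 1090 and 898 in 8wk STZ. On this TMM scale every 8wk STZ library lay below every Control and every 4wk STZ library, while 4wk STZ overlapped with Control. Between 8wk STZ and Control its log2 fold change was -0.61 (SE 0.146), with an adjusted p of 0.0559 in edgeR's quasi-likelihood test, just above the threshold. Without Control 3 and 4wk STZ 3 it was -0.47, with an adjusted p of 0.149. It passed with limma-voom, with DESeq2, without the filter on low counts and with upper-quartile factors. It did not pass under the other alternatives, which include library totals only and only the 2 groups compared. It passed in 0 of the 7 fits that left out 1 library. In the authors' deposited table its log2 fold change was -0.62, with an FDR of 0.00108.

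Neat1 (chr19:5824708-5845478, minus strand, GRCm38), its neighbour on the chromosome, was at 14.9, 7.38 and 10 CPM in Control, 28.8, 15.1 and 11.4 in 4wk STZ, and 26.7, 29.5, 25.9 and 34.8 in 8wk STZ. The 8wk STZ libraries lay above all Control libraries, and 4wk STZ 1 was as high as they were. Against Control 8wk STZ had a log2 fold change of 1.44 (SE 0.334), with an adjusted p of 0.0523 by edgeR, so the call was missed. Without Control 3 and 4wk STZ 3 the adjusted p was 0.103, and the authors' deposited table gives 1.44 with an FDR of 0.000534. Neat1 passed with DESeq2, limma-voom, no filter, library totals only, and only the 2 groups compared. It passed in 0 of the 7 fits that left out 1 library. Thus the 2 nuclear body RNAs lay on opposite sides of 0, and neither passed by edgeR. For Frmd8, the coding gene next to Neat1, the log2 fold change between 8wk STZ and Control was 0 (SE 0.159), and it did not pass.

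The RNAs of proteins that share the 2 nuclear bodies were taken as lists. The lists were chosen with earlier results of these data known, so their counts carry no test, and protein was not measured. Of the RNAs of 20 nuclear speckle proteins 4 rose in 8wk STZ against Control, beside 0.971% of all genes. None fell, beside 1.4% of all genes, and the list median was 0.34. The 4 were Srsf2, a splicing activator, at 34.1 ± 2.33 CPM (SD, n = 3) in Control and 196 ± 41.2 (n = 4) in 8wk STZ, Snrnp70, a protein of the U1 particle, and the splicing kinases Clk1 and Clk4. Of 16 paraspeckle proteins none passed by edgeR, and their median was -0.06. Of 21 proteins of nuclear RNA decay none passed, and their median was 0.

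AU020206 (chr7:75769038-75782099, minus strand, GRCm38) was the second most read. It was placed with the immune lincRNAs, of which 1 of 6 tested passed at 8 weeks. Its levels were 147, 125 and 130 CPM in Control, 183, 212 and 169 in 4wk STZ, and 170, 204, 238 and 185 in 8wk STZ. Both STZ groups lay wholly above Control and overlapped with each other. Its log2 fold change was 0.49 (SE 0.137, adjusted p = 0.315 by edgeR) in 4wk STZ and 0.57 (SE 0.13, adjusted p = 0.0483) in 8wk STZ. Without Control 3 and 4wk STZ 3 the 8wk STZ value was 0.55 with an adjusted p of 0.131.

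The nearest coding gene to AU020206 is Akap13, an anchoring protein for kinase A, 14429 bases away on the opposite strand. Akap13 rose too, from 146 ± 3.45 CPM (SD, n = 3) in Control to 214 ± 17.3 (n = 4) in 8wk STZ, with a log2 fold change of 0.56 (SE 0.111, adjusted p = 0.0286 by edgeR). Over the 128 members with a tested neighbour, the fold changes of member and neighbour in 8wk STZ against Control had a Pearson r of -0.04 across members. For the 10 that overlap their coding gene, r was 0.12 there. It was 0.82 in 4wk STZ against Control and -0.40 in 8wk STZ against 4wk STZ. These values are a description without a test. The RefSeq promoter window of AU020206 (chr7:75782071-75782370, minus strand, GRCm38.p6) is shown because both genes of the pair passed. It holds 1 copy of AGGAAG, the core bound by ETS factors such as PU.1, the factor that defines macrophages. The capitals mark it on the reverse strand.
AU020206: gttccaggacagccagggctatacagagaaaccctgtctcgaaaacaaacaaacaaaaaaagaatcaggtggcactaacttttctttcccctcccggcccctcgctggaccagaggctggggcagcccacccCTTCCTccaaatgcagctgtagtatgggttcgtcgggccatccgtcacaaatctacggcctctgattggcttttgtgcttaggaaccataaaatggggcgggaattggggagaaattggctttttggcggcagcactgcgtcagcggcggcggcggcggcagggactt

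AGGAAG on either strand stood in 35.4% of the 32851 RefSeq promoter windows of this length, so 1 match is common. Of the members, 76 had a promoter in that table, with 87 windows, and 36.8% of these held it. The longer GAGGAAGT, which contains AGGAAG, stood in 6.9% of the members' windows, beside 3.2% of all. Those 6 windows belong to Morrbid, 5031425F14Rik, Gm5547, Gm12708, Gm33370 and D130017N08Rik.

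Gm38843 (chr6:82803769-82805083, minus strand, GRCm38) has 323 exonic bases and no established function. It was at 16.8, 15.5 and 20.8 CPM in Control, 15.5, 14.4 and 16.4 in 4wk STZ, and 30, 27.5, 32.6 and 29.6 in 8wk STZ. All 8wk STZ libraries lay above the 6 others, which overlapped. Its log2 fold change was 0.76 (SE 0.157, adjusted p = 0.0314 by edgeR) against Control and 0.96 (SE 0.158, adjusted p = 0.0282) against 4wk STZ. Hk2, the glycolytic hexokinase next to it on the same strand, had -0.36 in 8wk STZ against Control (adjusted p = 0.0536).

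Gm2629, a predicted lincRNA on chromosome 18, was at 80, 77.5 and 78.3 CPM in Control, 101, 75.3 and 61.1 in 4wk STZ, and 114, 134, 137 and 124 in 8wk STZ. The Control libraries were nearly equal, and the 8wk STZ libraries lay above all others. Against Control 8wk STZ had a log2 fold change of 0.69 (SE 0.151, adjusted p = 0.0403 by edgeR). Against 4wk STZ it was also 0.69, and the adjusted p of 0.0684 did not pass.

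Gm20342 (chr1:63117118-63126837, plus strand, GRCm38) was the only called member that fell against Control. It was at 24.7, 19.3 and 22 CPM in Control, 19.6, 14.4 and 18 in 4wk STZ, and 7.49, 9.78, 11.5 and 13.7 in 8wk STZ. The 8wk STZ libraries lay below all others, and 4wk STZ overlapped with Control. Its log2 fold change between 8wk STZ and Control was -1.05 (SE 0.222, adjusted p = 0.0356 by edgeR), and without Control 3 and 4wk STZ 3 the adjusted p was 0.101. Its single exonic block holds a run of 35 A. The coding neighbour Ino80d, a subunit of a chromatin remodeller, had -0.02. The member Ino80dos, which lies across Ino80d on the other strand and was picked with its values in view, was at 10.1 ± 0.949 CPM (SD, n = 3) in Control and 5.66 ± 0.609 (n = 4) in 8wk STZ (adjusted p = 0.0886 by edgeR).

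**Figure D4:**
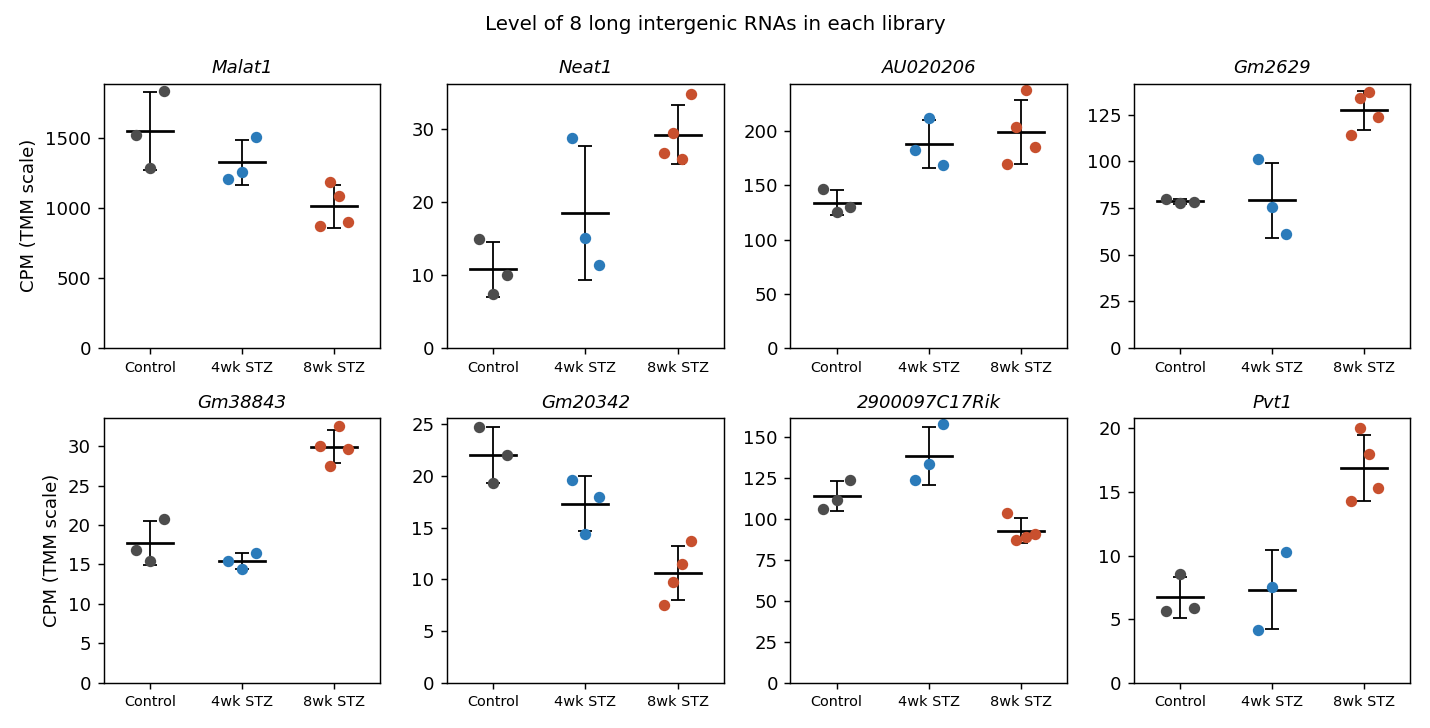
CPM (TMM scale) of 8 members in each library. Points are libraries, the thick line is the group mean and the bars are 1 SD. Gm38843, Gm2629 and Pvt1 in 8wk STZ lie above both other groups, Gm20342 and Malat1 in 8wk STZ lie below both, and 2900097C17Rik is highest in 4wk STZ.

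2900097C17Rik (chr2:156388065-156392979, minus strand, GRCm38) is Norad, which binds Pumilio proteins, repressors of many messenger RNAs, and so limits them. Its transcript of 4915 bases holds 11 copies of the Pumilio motif TGTANATA, where N is any base, counted on the transcript's strand. The next count is 4, in Neat1, and 114 members hold none. Per 1000 bases 2900097C17Rik holds 2.238, beside 0.152 over all members together. The short Gm20703, with 1 copy in 385 bases, is denser at 2.597. Sites 1, 2 and 3 and the adjoining sites 8 and 9 are shown, with the motif in capitals, because they give the 3 forms of the variable base and the densest stretch. They lie on the minus strand at chr2:156392316-156392335, chr2:156391820-156391839, chr2:156391631-156391650, chr2:156390525-156390544 and chr2:156390516-156390535 (GRCm38, from the GENCODE vM21 transcript).
Site 1: gtcctgTGTATATAatatga
Site 2: acatgcTGTAAATAcctttt
Site 3: tttcttTGTACATAgtgtat
Site 8: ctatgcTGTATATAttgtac
Site 9: atatatTGTACATActggac

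2900097C17Rik was at 106, 112 and 124 CPM in Control, 124, 134 and 158 in 4wk STZ, and 104, 87.5, 89.3 and 91.2 in 8wk STZ. The 4wk STZ libraries were the highest and the 8wk STZ libraries the lowest, with no overlap between any of the groups, though Control 3 and 4wk STZ 1 were equal as rounded. It fell between 4wk STZ and 8wk STZ, with a log2 fold change of -0.58 (SE 0.11, adjusted p = 0.0409 by edgeR). Against Control the values were 0.28 in 4wk STZ (adjusted p = 0.479) and -0.29 in 8wk STZ (adjusted p = 0.222), and neither passed. Without Control 3 and 4wk STZ 3 the fall between the STZ groups was no longer called (-0.47, adjusted p = 0.139). Gm7292, a near-identical copy, had 518 reads beside 54622 for 2900097C17Rik.

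Oip5os1 (chr2:119594297-119607502, plus strand, GRCm38), Cyrano, is known for a site that pairs with miR-7 over nearly its whole length and leads to the loss of that microRNA. The site and miR-7a are shown for that pairing. In an alignment with gaps allowed, 22 of the 23 bases of miR-7a had a match. The site holds extra bases in the middle, so the pairing is broken there. The site lies at chr2:119602136-119602161 on the plus strand (GRCm38, from the GENCODE vM21 transcript), and miR-7a-5p is from RefSeq (GRCm38.p6). Capitals mark the seed, bases 2 to 8 of the microRNA, and its match.
Oip5os1 site: aacaacaaaatcaccaatGTCTTCCa
miR-7a-5p: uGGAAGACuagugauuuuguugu

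Oip5os1 was at 70.5, 65.9 and 59.4 CPM in Control, 69.4, 72 and 69.9 in 4wk STZ, and 66.2, 55.8, 50.2 and 49.1 in 8wk STZ. Its 8wk STZ libraries lay below those of 4wk STZ and overlapped with Control. Its log2 fold change was -0.24 (SE 0.123, adjusted p = 0.401 by edgeR) against Control and -0.35 (SE 0.122, adjusted p = 0.236) against 4wk STZ.

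Pvt1 (chr15:62037986-62378096, plus strand, GRCm38) lies beside the growth regulator Myc and is known to affect Myc levels. It was at 5.67, 8.57 and 5.92 CPM in Control, 4.13, 7.54 and 10.3 in 4wk STZ, and 14.3, 20, 18 and 15.3 in 8wk STZ. The 8wk STZ libraries lay above all others. The value against Control, a log2 fold change of 1.33 (SE 0.312), had an adjusted p of 0.0543 by edgeR and was not called. Pvt1 passed with DESeq2, limma-voom, no filter, library totals only, and only the 2 groups compared. It passed in 0 of the 7 fits that left out 1 library. Myc had -0.41 (adjusted p = 0.276).

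AW112010, which carries a translated open reading frame needed in macrophage responses, was at 25.7, 19.7 and 24.7 CPM in Control, 27.3, 31.6 and 27.3 in 4wk STZ, and 34.1, 33.3, 37.6 and 34.2 in 8wk STZ. The 3 groups did not overlap, and the order was Control, 4wk STZ, 8wk STZ. In 8wk STZ against Control its log2 fold change was 0.57 (SE 0.141, adjusted p = 0.0617 by edgeR). In the immune list, Morrbid, which prolongs the life of short-lived myeloid cells and restrains Bcl2l11, was at 2.8 ± 1.11 CPM (SD, n = 3) in Control and 3.66 ± 0.784 (n = 4) in 8wk STZ. Trp53cor1, the p53 target lincRNA-p21 near Cdkn1a, was at 3.14 ± 1.34 and 2.24 ± 1.13 CPM. Neither difference passed. Cdkn1a itself, the cell cycle inhibitor p21, rose from 10.1 ± 1.57 CPM (SD, n = 3) to 24.4 ± 6.94 (n = 4), with a log2 fold change of 1.27 (adjusted p = 0.0281 by edgeR), and was looked up after its value was seen.

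The small nucleolar RNAs guide chemical modification of ribosomal and spliceosomal RNA. Their host list held 16 tested genes. In 8wk STZ against Control 1 of them rose, Snhg5, which is not among the 150, from 7.14 ± 0.719 CPM (SD, n = 3) to 14.4 ± 2.65 (n = 4), with a log2 fold change of 1.01 (adjusted p = 0.0421 by edgeR). The median of the list was 0.37, beside -0.01 for all genes. Its summed counts took 0.0225 to 0.0233% of a library in Control, 0.027 to 0.0334% in 4wk STZ and 0.0284 to 0.0303% in 8wk STZ, so both STZ groups lay above Control.

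Of the hosts, 5 are members, and none passed in any comparison. Snhg6 was at 6.51, 9.25 and 6.42 CPM in Control, 4.57, 6.59 and 8.55 in 4wk STZ, and 9.96, 17.2, 15.8 and 15.6 in 8wk STZ. Its 8wk STZ libraries lay above all others, with a log2 fold change of 0.99 (SE 0.287, adjusted p = 0.109 by edgeR) against Control. Snhg20 was at 3.55, 7.49 and 5.92 CPM in Control, 2.45, 1.68 and 1.71 in 4wk STZ, and 3.6, 6.51, 7.68 and 8.19 in 8wk STZ. It was low in all 4wk STZ libraries and overlapped between Control and 8wk STZ. Its log2 fold change at 4 weeks was -1.54 (SE 0.408, adjusted p = 0.287 by edgeR), which had the smallest p of the 150 in that comparison.

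Snhg15 had 1.95 ± 1.23 CPM (SD, n = 3) in Control and 5.11 ± 1.48 (n = 4) in 8wk STZ, and the groups overlapped by 1 library. Snhg12 had 6.32 ± 2.16 and 7.64 ± 1.13 CPM, and Epb41l4aos had 3.04 ± 0.56 and 4.23 ± 0.932. Snhg12, Snhg15 and Snhg20 share 19.57%, 9.79% and 7.69% of their exonic bases with other genes, most with a small RNA gene on the same strand, and where their reads lie was not tested.

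**Figure D5:**
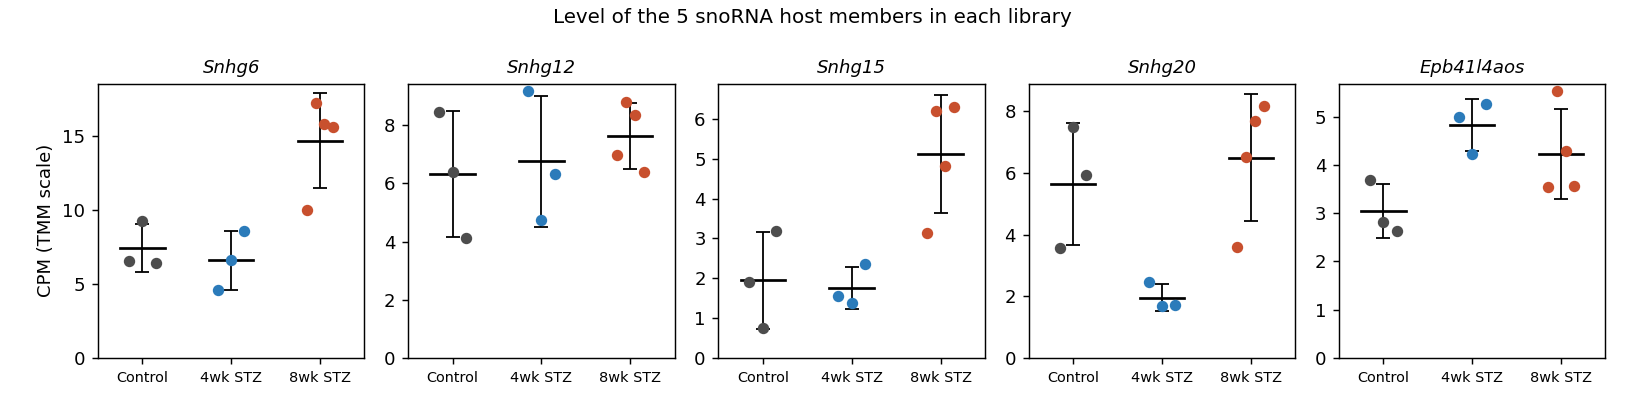
CPM (TMM scale) of the 5 snoRNA host members in each library. Points are libraries, the thick line is the group mean and the bars are 1 SD. Snhg6 is above both other groups in 8wk STZ, and Snhg20 is below both other groups in 4wk STZ.

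A mature microRNA of the RefSeq table lay inside or within 2000 bases of at least 8 members on the same strand, with 29 microRNAs listed for these. The neural hosts named further below are not among the 8, so the list does not cover every host. The libraries copy long RNA, so the microRNAs themselves were not measured. The host of most interest in microglia is Mir142hg (chr11:87755577-87757270, plus strand, GRCm38), since miR-142 is made in blood and immune cells. The let-7 host 6720427I07Rik carries 3 microRNAs with 1 shared seed, GAGGUAG. The sequences are shown because a shared seed means shared targets, with the seed in capitals (RefSeq, GRCm38.p6). The miR-142a arms lie at chr11:87756867-87756887 and chr11:87756903-87756925, plus strand, and the let-7 arms at chr13:48536078-48536099, chr13:48537889-48537910 and chr13:48538239-48538260, minus strand.
miR-142a-5p: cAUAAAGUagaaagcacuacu
miR-142a-3p: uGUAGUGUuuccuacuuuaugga
let-7d-5p: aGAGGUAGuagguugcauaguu
let-7f-5p: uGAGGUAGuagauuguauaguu
let-7a-5p: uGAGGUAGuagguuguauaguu

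Mir142hg was at 73.9, 38.5 and 46.3 CPM in Control, 68.5, 61.1 and 52.7 in 4wk STZ, and 44.3, 43.4, 52.3 and 36.5 in 8wk STZ. Control overlapped with both STZ groups, which did not overlap with each other, and the log2 fold change of 8wk STZ against Control was -0.26 (SE 0.212, adjusted p = 0.655 by edgeR). The let-7 host had 1.12 ± 0.981 CPM (SD, n = 3) in Control and 2.87 ± 1.48 (n = 4) in 8wk STZ, and it had no read in Control 1.

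Gm26532 (chr8:84208920-84209609, plus strand, GRCm38) begins just downstream of the miR-23a, miR-27a and miR-24 cluster, whose last arm lies 24 bases before its start. The 3 microRNAs are shown because they have different seeds (capitals), unlike the let-7 arms (RefSeq, GRCm38.p6, chr8:84208563-84208583, chr8:84208727-84208747 and chr8:84208875-84208896, plus strand).
miR-23a-3p: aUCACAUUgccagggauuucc
miR-27a-3p: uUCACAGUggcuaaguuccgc
miR-24-3p: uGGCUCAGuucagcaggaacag

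Gm26532 was at 0.519, 1.33 and 2.32 CPM in Control, 2.55, 0.622 and 1.87 in 4wk STZ, and 2.49, 3.43, 3.14 and 5.41 in 8wk STZ. The 8wk STZ libraries lay above Control, and 4wk STZ overlapped with both. Against Control the log2 fold change was 1.38 (SE 0.624, adjusted p = 0.318 by edgeR). The host of miR-191 and miR-425, 4833445I07Rik, had 1.85 ± 0.387 CPM (SD, n = 3) in Control, 1.94 ± 0.208 (n = 3) in 4wk STZ and 1.89 ± 0.689 (n = 4) in 8wk STZ. Gm26532 and the let-7 host lie outside the rule for named genes and were chosen after their values were seen.

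The neural hosts Mir124-2hg and Mir124a-1hg, sources of a microRNA of neurons, were both among the 150. Mir124-2hg had 14.1 ± 3.13 CPM (SD, n = 3) in Control and 12 ± 3.43 (n = 4) in 8wk STZ. Mir124a-1hg was at 1.54, 4.19 and 2.55 CPM in Control, 1.87, 0.912 and 6.53 in 4wk STZ, and 6.49, 13.3, 5.95 and 5.22 in 8wk STZ. Its 8wk STZ libraries lay above Control, with a log2 fold change of 1.49 (SE 0.654, adjusted p = 0.301 by edgeR). Rncr4, a lincRNA known from the retina and picked with its values in view, was at 3.74, 7.07 and 5.22 CPM in Control, 5.07, 4.04 and 6 in 4wk STZ, and 2.71, 2.49, 1.19 and 3.04 in 8wk STZ. Its 8wk STZ libraries lay below all others (log2 fold change -1.18 against Control, adjusted p = 0.148 by edgeR). The rod markers' share of counts was also lowest in 8wk STZ, and its part in this value was not tested.

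Members of the X inactivation centre and of imprinted loci were low. Jpx, an activator of Xist, was at 6.73, 4.01 and 7.57 CPM in Control, 1.89, 2.07 and 4.45 in 4wk STZ, and 2.17, 4.79, 4.6 and 3.51 in 8wk STZ. Control was high but overlapped with both STZ groups, and no comparison passed. Ftx, a further gene of that region, had 3.28 ± 0.952 CPM (SD, n = 3) in Control and 4.15 ± 0.675 (n = 4) in 8wk STZ. Meg3, the maternally expressed RNA of the Dlk1 locus, had 1.61 ± 0.687 and 2.35 ± 1.44 CPM. Xist itself had 26 reads over the 10 libraries and is not a member.

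Gm10076 is a near-identical copy of a coding gene. Its 384 bases match Rpl41, which codes for a small ribosomal protein, over 383 aligned bases with 2 differences. Counted from the 5′ end of the Gm10076 transcript, with the Rpl41 base first, these are C127T and G234A. The whole Rpl41 reading frame of 78 bases is present without a change, at positions 42 to 119. The stretch is shown for that identity, with the reading frame in capitals (chr14:105681863-105681952, plus strand, GRCm38, from the GENCODE vM21 transcript).
Gm10076: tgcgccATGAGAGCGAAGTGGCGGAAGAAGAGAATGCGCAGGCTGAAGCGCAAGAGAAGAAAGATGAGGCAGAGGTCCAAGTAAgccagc

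Gm10076 had 72693 reads beside 251285 for Rpl41. How reads that fit both genes were counted is not given in the sources used here, so its rank and its values are uncertain. It was at 117, 135 and 131 CPM in Control, 141, 182 and 187 in 4wk STZ, and 171, 132, 149 and 137 in 8wk STZ. The 4wk STZ libraries lay above Control, with a log2 fold change of 0.42 (SE 0.133, adjusted p = 0.361 by edgeR), and Rpl41 had 0.24. In all, 14 members have at least 50% of a transcript at 95% identity or more in another gene. Of these, 9 have such a match in a coding gene, which need not be their best match. Gm47283, on the Y chromosome, shares 86.5% with Erdr1, and its counts vary between 24.9 and 102 CPM.

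The remaining members among the 15 most read have no established function. Gm5086 was at 87.9, 61.8 and 86.2 CPM in Control, 103, 91 and 82.9 in 4wk STZ, and 103, 120, 116 and 102 in 8wk STZ. Its 8wk STZ libraries lay above Control (log2 fold change 0.49, SE 0.14, adjusted p = 0.105 by edgeR). Gm37494 had 19.5 ± 5.98 CPM (SD, n = 3) in Control, 35.5 ± 9.03 (n = 3) in 4wk STZ and 30.7 ± 3.98 (n = 4) in 8wk STZ. Both STZ groups were above Control without overlap, and the adjusted p was 0.322 at 4 weeks and 0.206 at 8 weeks by edgeR. Gm33699 went the other way at 4 weeks, from 43.3 ± 8.12 to 32.2 ± 2.63 CPM, and was at 43.7 ± 7.62 in 8wk STZ. Gm10134 (165 ± 21.6, 164 ± 28.8 and 171 ± 15.5 CPM), A830008E24Rik and Gm29291 overlapped between all groups.

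Lower in rank, 4933424M12Rik was at 5.45, 7.2 and 9.5 CPM in Control, 8.8, 14.6 and 8.12 in 4wk STZ, and 15.1, 17.9, 17.9 and 14.8 in 8wk STZ. All 8wk STZ libraries lay above the others, with a log2 fold change of 1.15 against Control (SE 0.27, adjusted p = 0.0543 by edgeR). This value passed with DESeq2, limma-voom, no filter, library totals only, and only the 2 groups compared. It passed in 0 of the 7 fits that left out 1 library. Gm20045 was lower in 8wk STZ than in 4wk STZ without overlap, at 6.83 ± 1.81 (n = 4) against 14.8 ± 2.9 CPM (SD, n = 3), with an adjusted p of 0.098 by edgeR. Gm26887 was at 3.45 ± 1.29 CPM (SD, n = 3) in Control, 7.61 ± 2.08 (n = 3) in 4wk STZ and 3.69 ± 0.675 (n = 4) in 8wk STZ. Its 4wk STZ libraries lay above both other groups, and the adjusted p against Control was 0.361 by edgeR.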

How the data were processed

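RNA was sequenced from viable GFP-positive cells sorted from both retinas of each animal, with libraries made from polyadenylated RNA by the SMARTer Ultra Low kit, which does not mark strand, per the labels' protocols. The deposited count table holds raw reads per gene, per the file headers. Listed in the submitters' processing notes are bcl2fastq, STAR 2.7.9a1, featureCounts 2.0.32, Salmon 1.5.23, edgeR and limma, and the build GRCm38. The versions are given as printed there, and the last character of each may be a reference mark. Not given in the sources used here are the gene annotation's release, whether strand was used, and how multiply mapped reads were counted. The second table holds the authors' own log2 fold changes, log2 mean CPM, likelihood ratio score, p-values and FDR, per the file headers. These were only set beside the values computed here.

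Of 55774 rows, 287 repeats of an Ensembl identifier were dropped, and 19211 genes had no read. Counts were scaled by TMM, filtered with filterByExpr by group (18957 genes left) and fitted with edgeR 4.0.16 (R 4.3.3), with 1 mean per group over 10 libraries and 7 residual degrees of freedom. Contrasts were tested by edgeR's quasi-likelihood method (robust), adjusted over all genes after Benjamini and Hochberg, and calls are adjusted p below 0.05. All p-values named "by edgeR" come from this fit. The fit was run beforehand on simulated counts, with planted changes larger than those of the members called here. That run therefore does not bear on these calls. Each SE was worked back from that test, as the size of the log2 fold change divided by the square root of the F statistic. CPM are on the TMM scale, and values are mean ± SD over animals. Reads carry no molecular identifiers.

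Alternatives were other scaling, no filter, DESeq2 1.42.0, limma-voom (limma 3.58.1), a block for replicate number, only the 2 groups compared, leaving out each library, and other definitions of the members. Leaving out Control 3 and 4wk STZ 3 was added after seeing the data. Coordinates, lengths and overlaps come from GENCODE vM21 (GRCm38), copies from BLAST+ 2.17.0, promoters and microRNAs from RefSeq. The members and the lists were chosen with earlier results of these data known. Text names the 15 most read members, members of role lists, called members, the 5 of smallest p where fewer than 5 were called, those around rank 150, and neighbours of such genes. Exceptions are stated.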

Additional observations from a re-analysis of the deposited data

Results flagged for a closer look

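Mir124a-1hg was at 13.3 CPM in 8wk STZ 2, far from the other 3 libraries of that group (5.22 to 6.49 CPM). Such a gap is met by chance in about 1 of 20 groups, and 37 groups of 4 were looked at. In the fit of all 10 libraries 2 members passed edgeR's test of 8wk STZ against 4wk STZ itself. 2900097C17Rik had a log2 fold change of -0.58, and all 4 libraries of 8wk STZ lay below all 3 of 4wk STZ. Gm38843 had 0.96, and all 4 lay above all 3. Neither was called in any of the 7 fits that left out 1 library, nor without Control 3 and 4wk STZ 3.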

How the results depend on the processing

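In 8wk STZ against Control the 4 called members became 8 with library totals only, 8 with no filter and 18 with DESeq2. The number was 8 with limma-voom, 5 with only the 2 groups compared and 3 with DESeq2 size factors in the edgeR fit. It was 0 with the replicate block and 1 without Control 3 and 4wk STZ 3. Leaving out 1 library at a time gave 0 to 1. The members called were not always the same. Of all 16 alternatives, Gm38843 passed in 8, Gm2629 in 7, Gm20342 in 6 and AU020206 in 5. In 8wk STZ against 4wk STZ the 2 became 1 with library totals only, 10 with DESeq2, 0 with the replicate block, 1 with only the 2 groups compared and 0 without Control 3 and 4wk STZ 3. Leaving out 1 library gave 0 to 1, where the 1 was Gm2629, and neither of the 2 was called in any of the 7 fits. In 4wk STZ against Control the 0 became 1 with DESeq2. No pairing by label number was seen. As deviations from their group means, same-numbered libraries correlated at -0.0297 to 0.0348 over 9 pairs. With so few libraries in a group this cannot exclude a pairing. The block leaves 8wk STZ 4, the sole library with number 4, without weight.

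Calls over all genes were 0, 449 and 174 in the 3 comparisons. They were 299, 1436 and 995 with DESeq2, and 12, 506 and 277 with no filter. With the block they were 0, 44 and 0, and 100 remained between the STZ groups with only those fitted. Leaving out 1 library gave 0 to 1, 206 to 255 and 13 to 118, with the lowest without 4wk STZ 3 (13) and without 8wk STZ 4 (14), and excluding Control 3 and 4wk STZ 3 gave 0, 275 and 6. With library totals only, 66% of the calls of 8wk STZ against Control were higher, beside 41% with TMM and 30.9% with upper-quartile factors, and the median log2 fold change of all genes moved from -0.01 to 0.10. Over the 37 named members and all alternatives, 1572 of 1739 values kept their direction and side of the threshold, 58 lost a call, 33 gained one, and 76, of 24 members, changed sign. None of these 76 was called in either fit, and their smallest adjusted p was 0.619 by edgeR, DESeq2 or limma-voom. Members chosen by mean CPM shared 145 of the 150, and calls were 0, 4 and 2 with these and with the 113 members free of exonic overlap.

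The sign changes, as log2 fold changes, were these. In 4wk STZ against Control the ranges without 1 library at a time were Gm10134 -0.16 to 0.09, Gm2629 -0.21 to 0.16, Gm47283 -0.02 to 0.58, Pvt1 -0.20 to 0.40, Snhg6 -0.41 to 0.03, Snhg12 -0.19 to 0.36, Mir124a-1hg -0.99 to 0.60, Ftx -0.41 to 0.39, Snhg15 -0.54 to 0.41, Morrbid -0.58 to 0.15, Trp53cor1 -0.68 to 0.01 and 4833445I07Rik -0.10 to 0.20. Under other alternatives the opposite sign came at Gm10134 0.01 and 0.00, Gm2629 -0.00, Pvt1 -0.29, Snhg12 -0.09, Mir124a-1hg -0.33 and -1.04, Snhg15 0.14 and Morrbid 0.09. In 8wk STZ against Control the ranges without 1 library at a time were Gm10134 -0.04 to 0.15, Mir142hg -0.45 to 0.06, Gm33699 -0.09 to 0.17, A830008E24Rik -0.08 to 0.16, Snhg20 -0.05 to 0.45, Gm26887 -0.13 to 0.42, 4833445I07Rik -0.19 to 0.24 and Gm47543 -0.55 to 0.54. Under other alternatives the opposite sign came at Gm33699 -0.03 and -0.02, A830008E24Rik -0.00, Gm29291 0.02, 4833445I07Rik -0.02 and -0.06 and Gm47543 0.08. In 8wk STZ against 4wk STZ the ranges without 1 library at a time were AU020206 -0.01 to 0.18, Gm10134 -0.04 to 0.21, Gm47283 -0.17 to 0.50, Gm37494 -0.34 to 0.02, Mir124-2hg -0.06 to 0.30, Snhg12 -0.02 to 0.46, Ftx -0.05 to 0.75, Trp53cor1 -0.37 to 0.19, Meg3 -0.39 to 0.33, Gm29395 -0.32 to 1.11 and 4833445I07Rik -0.25 to 0.18. Under other alternatives the opposite sign came at Gm10134 -0.00, Trp53cor1 0.23, Meg3 -0.01 and 4833445I07Rik 0.06 and 0.17.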

Other observations

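Gm49192 had the largest spread within groups of the 150. It was at 0.757, 9.97 and 0.954 CPM in Control, 6.5, 8.14 and 1.49 in 4wk STZ, and 10.3, 1, 9.33 and 1.59 in 8wk STZ. In 5 libraries it lay between 6.5 and 10.3 CPM and in the other 5 between 0.757 and 1.59 CPM, with libraries of every group on both sides. E230001N04Rik was the next most variable, with 5.41, 11.8 and 0.623 CPM in Control, 5.09, 6.17 and 9.39 in 4wk STZ, and 4.32, 8.46, 0.796 and 2.69 in 8wk STZ. It showed no such gap. Both were chosen after their values were seen.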
